A study of Canis lupus familiaris with 30 samples.

Results

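Follicular thyroid carcinomas (FTC) of dogs that carried a gene fusion of TG were compared with FTC in which no alteration of TG was found. The members were chosen by tumor name: 3 tumors with a TG fusion (TC1869, TC1953 and TC1994) and 16 tumors with neither a fusion nor a short variant of TG, together 19 of the 30 thyroid carcinomas of the series. The other 11 libraries, among them the medullary carcinomas, the FTC with a short variant of TG and TC1088, were left out. Each library is total RNA, depleted of ribosomal RNA, from 1 primary tumor of a dog, with no treatment named, so a sample is a tumor with its stroma and vessels. The study called the fusions from the reads of these same libraries with STAR-fusion and sequenced the fusion products by the Sanger method. The grouping and the TG level therefore rest on the same reads. The fusion partners and breakpoints were not analysed here.

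The groups differed in more than TG. All 3 TG-fusion tumors were graded well differentiated, came from male dogs and from euthyroid dogs. Of the 16 TG-unaltered tumors, 4 were well and 12 moderately differentiated, and 6 came from male and 10 from female dogs. By hormone status, 5 came from dogs recorded as euthyroid, 3 as hypothyroid and 2 as hyperthyroid, and for 6 it was unknown. The 4 well differentiated TG-unaltered tumors all came from female dogs, so among well differentiated tumors sex and TG fusion cannot be told apart. Mineral or bone was recorded in TC1869 and TC1994 and in 1 of the 16 TG-unaltered tumors (TC1213). The TG-unaltered tumors are not free of other alterations: the study lists a PAX8 fusion in TC2089, MEN1 variants in TC1164 and TC815 and a TSHR variant in TC2288. TC1994 is the only one of the 19 tumors without exome data.

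TG encodes thyroglobulin, the very large glycoprotein that follicular cells secrete into the colloid and on whose tyrosines the thyroid hormones are made. It is folded in the endoplasmic reticulum (ER), iodinated at the apical membrane with peroxide from the dual oxidases, stored, taken back into the cell, and cut by lysosomal proteases that release hormone. Its transcript is among the most abundant of the thyroid and marks follicular cells. Thyroid-stimulating hormone drives these steps through its receptor (TSHR) and cAMP.

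Between 18275492 and 45148677 reads were counted on genes in the TG-fusion tumors, and between 17786560 and 36516349 in the TG-unaltered tumors. TC1869 had the most counts, but its size factor of 1.07 lay within the range of the TG-unaltered tumors (0.713 to 1.49). The 10 most abundant genes took 17.0% to 40.2% of the counts of TG-fusion tumors and 15.6% to 28.6% of those of TG-unaltered tumors. At least 10 counts were found for 15637 to 16537 and for 15735 to 17156 genes. Levels are given below on the log2 scale, as counts scaled by each tumor's size factor with 1 added. No pair of tumors had identical counts.

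TG levels were the highest of all 19 tumors in TC1869 and TC1994, and near the TG-unaltered median in TC1953. Its level was 22.75 in TC1869, 18.33 in TC1953 and 21.70 in TC1994. In the 16 TG-unaltered tumors the level ranged from 13.10 to 21.35, with a median of 19.05. TC1869 and TC1994 ranked first and second of the 19 tumors, while TC1953 ranked 12 and lay above 7 of the 16 TG-unaltered tumors. Against the TG-unaltered median, TG was 13.1-fold in TC1869, 6.30-fold in TC1994 and 0.607-fold in TC1953. TG reads made up 16.7% of all counts of TC1869, 12.3% of TC1994 and 1.43% of TC1953, against 0.0364% to 9.60% in TG-unaltered tumors.

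The mean TG level was 20.93 ± 2.31 (SD, n = 3) in TG-fusion tumors and 17.96 ± 2.69 (SD, n = 16) in TG-unaltered tumors. The difference of 2.97 ± 1.49 (SE) did not pass a two-sided exact permutation test (p = 0.0836 over 969 splits, of which the smallest possible p is 0.00103). Without TC1953 the difference was 4.27 (exact permutation p = 0.0392), without TC1869 2.05 (exact permutation p = 0.327) and without TC1994 2.58 (exact permutation p = 0.209). edgeR's quasi-likelihood test gave TG a log2 fold change of 2.42 ± 0.99 (SE) with an unadjusted p of 0.0241 and an adjusted p of 0.962 over all genes tested. The 4 well differentiated TG-unaltered tumors had TG levels of 13.57 to 20.35, and against them alone the difference was 2.61 (exact permutation p = 0.314).

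The genes next to TG were read in the same tumors, to see whether a high TG level came with high levels of its neighbours. Of the 5 genes on each side in the reference gene order, 9 were tested, since HHLA1 was too low. In TC1994, the 4 tested genes before TG were all above the TG-unaltered median, by a median of 1.62 on the log2 scale. KCNQ3, a potassium channel subunit, had a level of 9.34 in TC1994, 3.54 in TC1953 and 0.00 in TC1869, against at most 7.99 in TG-unaltered tumors. TMEM71 and the nearby EFR3A were also above all 16 TG-unaltered tumors in TC1994, and PHF20L1 and LRRC6 above 15 of 16. In TC1869, where TG was highest, the same 4 genes had a median difference of -0.68, and in TC1953 of -0.39.

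SLA, an adaptor of antigen receptor signaling whose gene lies within the TG locus, had levels of 11.50, 9.62 and 14.96 in TC1869, TC1953 and TC1994, against 4.57 to 14.15 in TG-unaltered tumors. The highest TG-unaltered value was that of TC902, which also had the highest TG level of that group (21.35) and the highest KCNQ3. Which strand was counted is not given in the sources used here, so reads of SLA and of TG transcripts that cross it cannot be told apart. On the far side of SLA the differences in TC1994 were 1.05 for CCN4, 0.12 for NDRG1, 0.52 for ST3GAL1 and -0.02 for ZFAT. Of the neighbours, KCNQ3 had an unadjusted p of 0.0452 and the others were above 0.05, and none passed the test over all genes. Without TC1994 the log2 fold changes of the listed neighbours had a median of -0.51, against 0.21 with it.

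**Figure D1:**
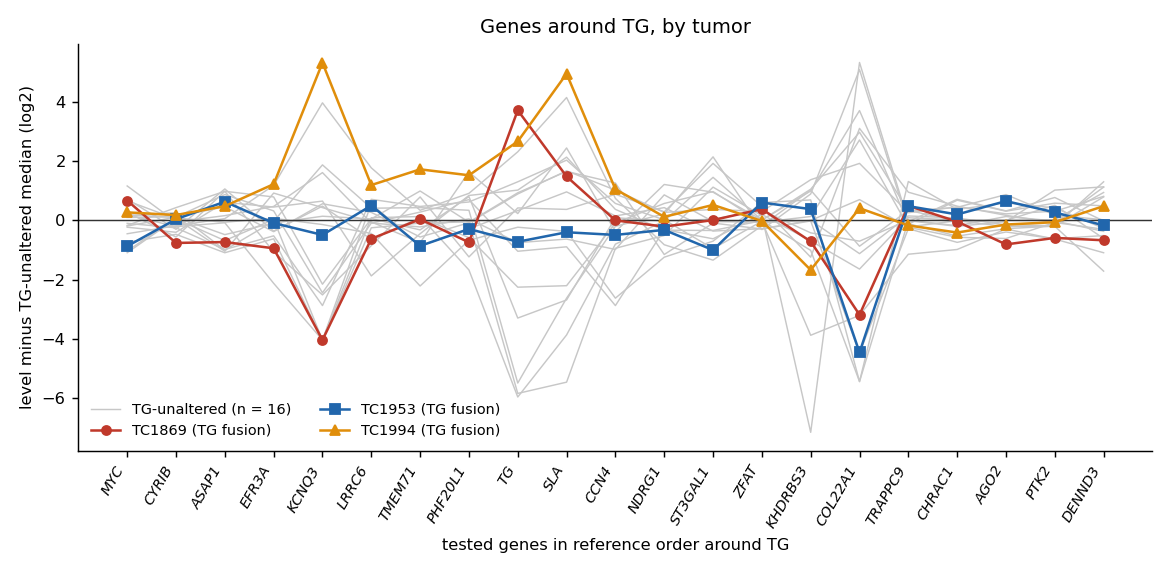
Level of each tested gene within 15 places of TG minus its median in the TG-unaltered tumors (log2), in the order of the reference gene table. Coloured lines are the 3 TG-fusion tumors and grey lines the 16 TG-unaltered tumors: TC1869 lies above all TG-unaltered tumors at TG alone (3.71), TC1994 at EFR3A, KCNQ3, TMEM71, TG and SLA, and TC1953 at none of these genes.

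Genes entered the comparison with 10 or more counts in 5 or more of the 19 tumors, which 17671 did. No gene passed edgeR's test at an adjusted p below 0.05 in either direction (0 higher and 0 lower, 0% of the genes tested). At an unadjusted p below 0.05, 455 genes were higher (2.57%) and 395 lower (2.24%) in TG-fusion tumors, 4.81% in all. DESeq2 called 4 genes higher (MMP9, PTGR1, ZGRF1 and MAPKAPK3, 0.0226%) and 25 lower (0.141%), 0.164% in all. At an unadjusted p below 0.05 DESeq2 had 448 genes higher (2.54%) and 686 lower (3.88%), 6.42% in all. No gene passed edgeR's test against the well differentiated TG-unaltered tumors alone, or with differentiation or sex as a term, where 8.44%, 7.75% and 6.48% of the genes had an unadjusted p below 0.05. Of all genes tested, 46.6% had a log2 fold change above 0, and the median was -0.04. All 3 TG-fusion tumors lay above all 16 TG-unaltered tumors for 4 genes (0.0226% of the genes tested) and below them for 5 (0.0283%). For any gene without ties, a single split of the 969 sets its 3 highest tumors apart, a share of 0.00103. Both shares found were smaller than this, so the genes without overlap named below are a description and not a trait of the group.

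The 5 genes with a symbol and the smallest p on the higher side were MMP9, PTGR1, NDNF, ZGRF1 and MAPKAPK3, and for 4 of them a single tumor set the size. MMP9, a secreted gelatinase that degrades matrix, had levels of 6.90 in TC1869, 3.76 in TC1953 and 10.09 in TC1994, against 1.03 to 6.20 (median 2.90) in TG-unaltered tumors. Its log2 fold change was 4.68 ± 0.84 (SE, edgeR adjusted p = 0.194; DESeq2 adjusted p = 0.0059) and 2.05 without TC1994. TC1869 and TC1994 were above all TG-unaltered tumors and TC1953 above 10 of them.

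PTGR1, a reductase that inactivates prostaglandins and leukotrienes, had levels of 11.93, 10.68 and 14.72 in TC1869, TC1953 and TC1994 (TG-unaltered 8.74 to 12.13), with a log2 fold change of 2.81 ± 0.58 (SE, edgeR adjusted p = 0.472) that was 0.86 without TC1994. NDNF, a secreted factor of neurons and vessels, had levels of 4.30, 1.97 and 9.02 (TG-unaltered 0.00 to 5.04), and its log2 fold change of 4.54 was 0.52 without TC1994. ZGRF1, a DNA helicase, stood out in TC1953 instead, with levels of 6.62, 11.57 and 7.99 (TG-unaltered 5.34 to 9.02). Its log2 fold change was 2.71, and -0.04 without TC1953.

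MAPKAPK3, a kinase activated by stress MAP kinases, was the one of the 5 with no overlap between the groups. Its levels were 11.49, 10.73 and 10.96 in TC1869, TC1953 and TC1994, and at most 10.62 in TG-unaltered tumors (median 9.73). The log2 fold change was 1.30 ± 0.29 (SE, edgeR adjusted p = 0.584; DESeq2 adjusted p = 0.0499), between 1.08 and 1.43 when any TG-fusion tumor was left out, and 2.04 among well differentiated tumors. The other genes above all TG-unaltered tumors in all 3 TG-fusion tumors, chosen after their values were seen, were DHTKD1, a mitochondrial enzyme of lysine breakdown (9.88 to 10.31 against at most 9.38), TRIM66, a chromatin reader (6.24 to 6.79 against at most 6.18), and CRADD, an adaptor of cell death signaling (7.43 to 7.90 against at most 7.42). For TRIM66 and CRADD the gap between the groups was small beside the spread within either group.

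On the lower side the smallest p values were those of INSC, CCBE1, RUFY4, RGS8 and PNCK, and here no single TG-fusion tumor set the size. INSC, an adaptor that orients the mitotic spindle, had levels of 4.00, 3.76 and 4.27 in TC1869, TC1953 and TC1994. TG-unaltered tumors ranged from 3.59 to 10.26 with a median of 8.04, and only 1 of the 16 lay below the TG-fusion tumors. The log2 fold change of INSC was -4.75 ± 1.11 (SE, edgeR adjusted p = 0.697; DESeq2 adjusted p = 2.81e-05), and -4.88 to -4.65 when any TG-fusion tumor was left out.

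CCBE1, a secreted protein needed for growth of lymphatic vessels, had levels of 2.25, 2.96 and 4.27 against 2.99 to 9.96, with a log2 fold change of -4.82. RUFY4, a regulator of autophagy, had 6.43, 6.76 and 5.72 against 5.20 to 10.65 (log2 fold change -3.07). RGS8, which shortens G-protein signaling, and PNCK, a calmodulin-dependent kinase, were low in all tumors (at most 6.96 and 4.99), and each TG-fusion tumor lay above at most 1 of the 16 TG-unaltered tumors for both genes. Their edgeR adjusted p values were 0.849 for CCBE1, 0.899 for RUFY4 and 0.962 for both others. In TC1869, TC1953 and TC1994, RGS8 had 2, 5 and 5 counts, PNCK 1, 0 and 2, and CCBE1 4, 7 and 12. The values of RGS8 and PNCK in these tumors thus lay at or near the floor of 3 counts.

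Below all TG-unaltered tumors in all 3 TG-fusion tumors were SLC16A14, of the monocarboxylate transporter family, GSG1L, an accessory subunit of glutamate receptors, CCDC127 and a pair of genes without a symbol, again chosen after their values were seen. SLC16A14 had levels of 7.11, 6.36 and 6.40 against 7.39 to 12.94, and GSG1L 0.95, 1.55 and 1.33 against 1.74 to 8.49. GSG1L had 1, 2 and 1 counts in the TG-fusion tumors, and 2 or 3 counts in TC2089, TC2011, TC2288 and TC902, so near its lower end the groups were apart by less than the floor of 3 counts and by the scaling to library size. The same held for ENSCAFG00000049332, one of the genes without a symbol, with 1, 1 and 0 counts in TG-fusion tumors and 1 in TC812. For CCDC127 the highest TG-fusion level was 8.60 and the lowest TG-unaltered level 8.70.

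**Figure D2:**
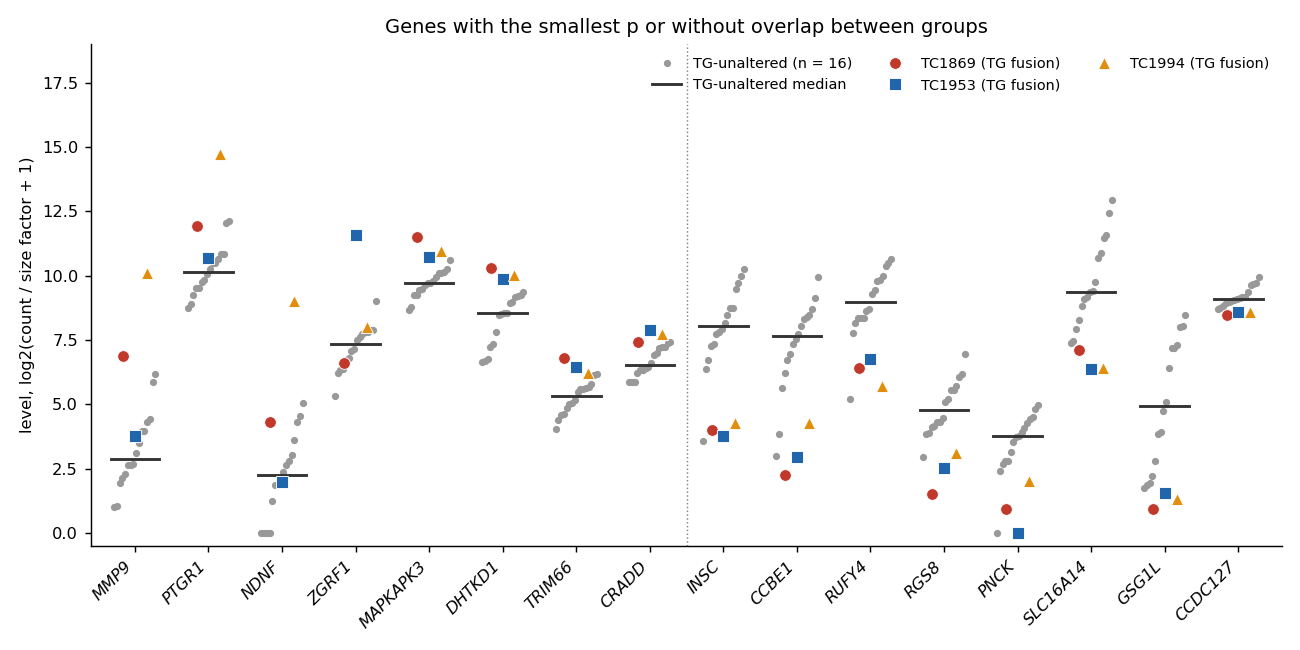
Levels (log2 of the normalized count plus 1) of the genes with the smallest p in each direction and of the named genes without overlap between groups, higher to the left and lower to the right of the dotted line. Grey points are the 16 TG-unaltered tumors with their median as a bar and coloured symbols the 3 TG-fusion tumors: TC1994 alone is far above the rest for NDNF (9.02) and TC1953 alone for ZGRF1 (11.57), whereas the 3 tumors lie close together for INSC and SLC16A14.

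The 25 genes that DESeq2 called lower shared a form: low in all 3 TG-fusion tumors and spread widely over the TG-unaltered tumors. Between 0 and 4 of the 16 TG-unaltered tumors (median 2) lay at or below the highest TG-fusion tumor. The same tumors recurred: TC2089 and TC812 were that low for CCBE1 (10 and 7 counts), NELL2 (30 and 93), SHANK2, SGSM1, UNC80 and PPP2R2C. They were not that low for FOXI1 (14 and 103 counts). Low levels of several of these genes together were therefore not particular to TG-fusion tumors, and the 25 genes are not separate findings. NELL2, a secreted protein of neurons, had levels of 6.65, 4.48 and 2.82 against 3.82 to 14.48 (median 11.75), and SFTPB, surfactant protein B, 3.82, 3.54 and 4.48 against 3.44 to 15.07. ADCYAP1R1, the receptor of the peptide PACAP, had 1.93, 0.98 and 1.33 against 0.99 to 10.53. FOXI1, a transcription factor of ion-transporting cells, was at 0.00 in TC1869 and TC1994 and at 1.97 in TC1953, against up to 8.77. KCNK12, a potassium channel, had 0 counts in all 3 TG-fusion tumors and in 2 TG-unaltered tumors, which allows up to 3 counts in each, and reached 9.54 in another. These genes were picked by the test, so their low values are a description. None of the 25 passed edgeR's test.

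The genes that make thyroid hormone did not stand apart as a group. Of 15 tested genes of hormone synthesis and iodide handling, 9 had a log2 fold change above 0 (46.6% of all genes), with a median of 0.45 (all genes -0.04). By edgeR, 2 reached an unadjusted p below 0.05 on the higher side (TG and DUOX1) and 0 on the lower, against 2.57% and 2.24% of all genes. DUOX1, which makes the peroxide, had levels of 17.15 in TC1869, 14.79 in TC1953 and 14.64 in TC1994, against 11.70 to 16.13 (log2 fold change 1.29 ± 0.56, unadjusted p = 0.0319). TC1869 was above all TG-unaltered tumors and TC1953 and TC1994 close to their median, and without TC1869 the log2 fold change was 0.03.

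Several genes of the same list separated the TG-fusion tumors from each other. SLC5A5, the sodium-iodide symporter that carries iodide into the cell, was at 16.98 in TC1869, 15.31 in TC1994 and 7.27 in TC1953. TG-unaltered tumors ranged from 0.00 to 16.41 with a median of 12.57, so that TC1869 was above all 16, TC1994 above 15 and TC1953 above 2. SLC5A8, also of this list, followed the same order with 10.86, 8.83 and 5.38. SLC26A4, the apical exchanger pendrin, was at 10.63 in TC1869, above all TG-unaltered tumors, and at 5.11 in TC1994, above 1 of them. TSHR was at 14.07 in TC1869 and at 10.86 in TC1953, above and below all 16 TG-unaltered tumors (10.89 to 13.81).

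**Figure D3:**
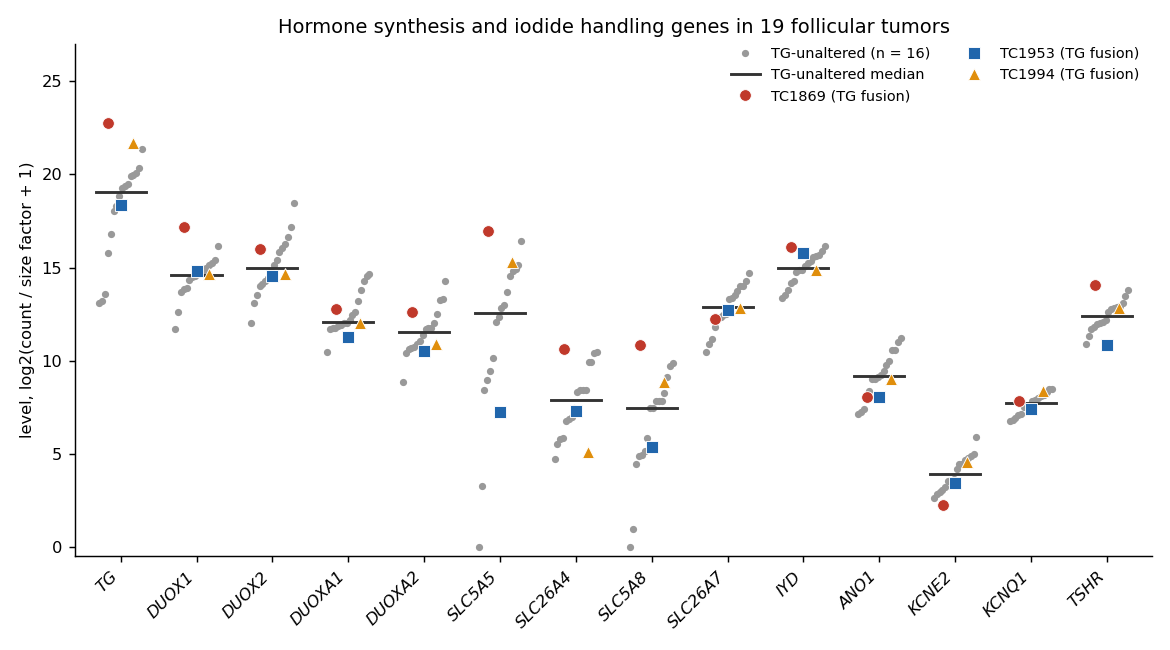
Levels (log2 of the normalized count plus 1) of 14 of the 15 tested genes of hormone synthesis and iodide handling. Grey points are the 16 TG-unaltered tumors with their median as a bar and coloured symbols the 3 TG-fusion tumors: TC1869 is the highest tumor for TG, DUOX1, SLC5A5, SLC26A4, SLC5A8 and TSHR, and TC1953 lies below the median for most of them.

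The thyroid differentiation score list, of which 14 of 16 genes were tested (FOXE1 and NKX2-1 were not analysed here), had 11 log2 fold changes above 0 and a median of 0.45. The median was -0.36 without TC1869, 0.91 without TC1953 and 0.77 without TC1994. Within the list the median difference from the TG-unaltered median was 1.82 in TC1869, 0.25 in TC1994 and -0.76 in TC1953. PAX8, the thyroid transcription factor, was above all TG-unaltered tumors in TC1869 (15.04) and above only 1 of them in TC1953 (13.15) and in TC1994 (13.24). HHEX and GLIS3 had log2 fold changes of 0.15 and 0.32. NKX2-5, a factor better known from the heart, was low in all tumors (0.95 to 1.55 in TG-fusion tumors, 0.00 to 5.33 in TG-unaltered tumors; log2 fold change -2.81, unadjusted p = 0.0237).

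Of the genes of TG uptake and proteolysis, 11 of 12 had a log2 fold change above 0 (46.6% of all genes), with a median of 0.79, and 3 had an unadjusted p below 0.05 on the higher side and 0 on the lower (2.57% and 2.24% of all genes). CTSK, the collagen- and TG-degrading cathepsin K, was at 9.27 in TC1869, 11.11 in TC1953 and 13.53 in TC1994, against 9.43 to 11.74 (log2 fold change 1.53 ± 0.48, unadjusted p = 0.00469), and without TC1994 its log2 fold change was -0.22. LGMN, the lysosomal protease legumain, was above 15, 15 and 16 of the 16 TG-unaltered tumors in TC1869, TC1953 and TC1994, with levels of 11.89, 11.59 and 12.62 (TG-unaltered median 11.29; log2 fold change 0.84 ± 0.30, unadjusted p = 0.0109). DPP7, a lysosomal dipeptidase, was at 13.14 in TC1869 (at most 12.10 in TG-unaltered tumors), 10.61 in TC1953 and 10.10 in TC1994, with a log2 fold change of 1.12 (unadjusted p = 0.0402) that was -0.38 without TC1869. LRP2, the endocytic receptor megalin, was at 14.15 in TC1994, above all TG-unaltered tumors, and at 8.64 and 11.65 in TC1869 and TC1953. Macrophages express cathepsins too: the summed level of 13 macrophage and myeloid markers was 12.73, 13.04 and 14.30 in TC1869, TC1953 and TC1994 (TG-unaltered 11.93 to 13.94), and its part in these values was not tested. No gene of this list passed the test over all genes, and the median was 0.39 without TC1869 and 0.48 without TC1994.

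Chaperones and enzymes that fold secreted proteins in the ER had 22 of 29 log2 fold changes above 0 (46.6% of all genes), with a median of 0.24. None had an unadjusted p below 0.05 by edgeR (none passed DESeq2's adjusted p). Without TC1869 the median was -0.07. HSPA5, the major ER chaperone, was at 16.07 there, above all TG-unaltered tumors (13.61 to 15.87), at 13.92 in TC1953 and at 15.13 in TC1994, and CALR, calreticulin, was at 16.28, 14.88 and 15.44 against 14.19 to 15.79. HSP90B1 was highest in TC1994 (15.88 against at most 15.72). The summed level of the list was 18.67 in TC1869, 17.48 in TC1953 and 18.14 in TC1994, above 16, 4 and 15 of the TG-unaltered tumors. The order of the 3 tumors was that of their TG levels, which rests on 3 values, and a relation of the list to TG was not tested. Of 11 genes that signal unfolded proteins, 7 were above 0 with a median of 0.28. TRIB3, XBP1, ATF4 and DDIT3 were above all TG-unaltered tumors in TC1869, and DDIT3 above 1 in TC1953 and 4 in TC1994. Other genes of the list were not raised in TC1869: ASNS, CHAC1, ATF3 and EIF2AK3 lay within the TG-unaltered range. Before scaling they had 101, 14, 86 and 1069 counts there, against up to 443, 506, 441 and 3354 in TG-unaltered tumors. Over the 11 genes the median difference from the TG-unaltered median in TC1869 was 0.35.

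Of the genes of thyroid hormone metabolism and transport, 6 of 13 had a log2 fold change above 0, with a median of -0.25. DIO1, which activates thyroxine, was at 11.97 in TC1869, above all TG-unaltered tumors, and in TC1953 and TC1994 above 5 and 4 of them. DIO2, the other activating deiodinase, was at 0.95, 1.97 and 2.47 against a median of 3.44 (log2 fold change -2.13, unadjusted p = 0.0518). THRA, a thyroid hormone receptor, was at 7.53 to 7.86 in all 3 TG-fusion tumors, above 3 or 4 of the TG-unaltered tumors (log2 fold change -1.38, unadjusted p = 0.0497).

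The list of TSH and cAMP signaling had 10 of 20 log2 fold changes above 0 and a median of -0.06. PDE4B, a phosphodiesterase that breaks down cAMP and is itself induced by it, was at 10.25 in TC1994, above all TG-unaltered tumors, and at 6.12 and 7.18 in TC1869 and TC1953 (log2 fold change 1.38, unadjusted p = 0.0235, and -0.74 without TC1994). ADCY9, an adenylyl cyclase, was at 11.05, 9.32 and 10.31 against a median of 11.54 (log2 fold change -1.21, unadjusted p = 0.0477).

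For genes that MAPK signaling drives, 2 of 10 log2 fold changes were above 0 and the median was -0.33. SPRY2, a feedback inhibitor of the pathway, was above 5, 1 and 2 of the 16 TG-unaltered tumors in TC1869, TC1953 and TC1994 (log2 fold change -1.75, unadjusted p = 0.0379), and the phosphatase DUSP6 was at 8.65 in TC1953, below all TG-unaltered tumors. PHLDA1, another target of the pathway, was at 8.93 in TC1869 against at most 8.35 (log2 fold change 1.24, unadjusted p = 0.0400, and -0.09 without TC1869). Proliferation genes had 6 of 29 log2 fold changes above 0 (46.6% of all genes), a median of -0.27 and none at an unadjusted p below 0.05 by edgeR (0 passed DESeq2's adjusted p). Their median difference from the TG-unaltered median was -0.79 in TC1869, 0.24 in TC1953 and -0.12 in TC1994. Of 21 receptor tyrosine kinase genes, 8 were above 0 and none reached an unadjusted p below 0.05 by edgeR (0 by DESeq2's adjusted p). ERBB2 was at 15.07 in TC1869, above all TG-unaltered tumors, 13.58 in TC1953 and 12.36 in TC1994. The cadherins CDH2 and CDH6 are counted with mesenchymal genes, and of 17 epithelial and mesenchymal genes 11 had a log2 fold change above 0 (46.6% of all genes). By edgeR, 1 had an unadjusted p below 0.05 on the higher side (2.57% of all genes) and 2 on the lower (2.24%). CDH2 (8.49, 8.54 and 6.02 against a median of 10.38) and CDH6 (2.92, 3.28 and 4.15 against 5.80) had log2 fold changes of -2.96 and -4.12, with unadjusted p values of 0.0161 and 0.0189. In the same list OCLN, the tight junction protein occludin, was above 16, 15 and 7 of the TG-unaltered tumors in TC1869, TC1953 and TC1994 (log2 fold change 0.99, unadjusted p = 0.0326). The other genes of the list, the mesenchymal VIM and FN1 among them, did not reach an unadjusted p below 0.05. The summed level of the list was 17.76, 18.91 and 17.26 in TC1869, TC1953 and TC1994, against 16.86 to 18.90 in TG-unaltered tumors. Of the glycolysis and hypoxia genes, 7 of 19 had a log2 fold change above 0 (46.6% of all genes), with a median of -0.27. At an unadjusted p below 0.05 by edgeR, 3 were on the higher side (2.57% of all genes) and 0 on the lower (2.24%). These were ALDOC, an aldolase, above 16, 16 and 12 of the TG-unaltered tumors (log2 fold change 1.51, unadjusted p = 0.0114), ENO1, an enolase, above 16, 13 and 13 (0.86, unadjusted p = 0.0158), and PFKFB4, a regulator of glycolytic flux, above 3, 14 and 16 (0.94, unadjusted p = 0.0267, and 0.20 without TC1994).

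**Figure D4:**
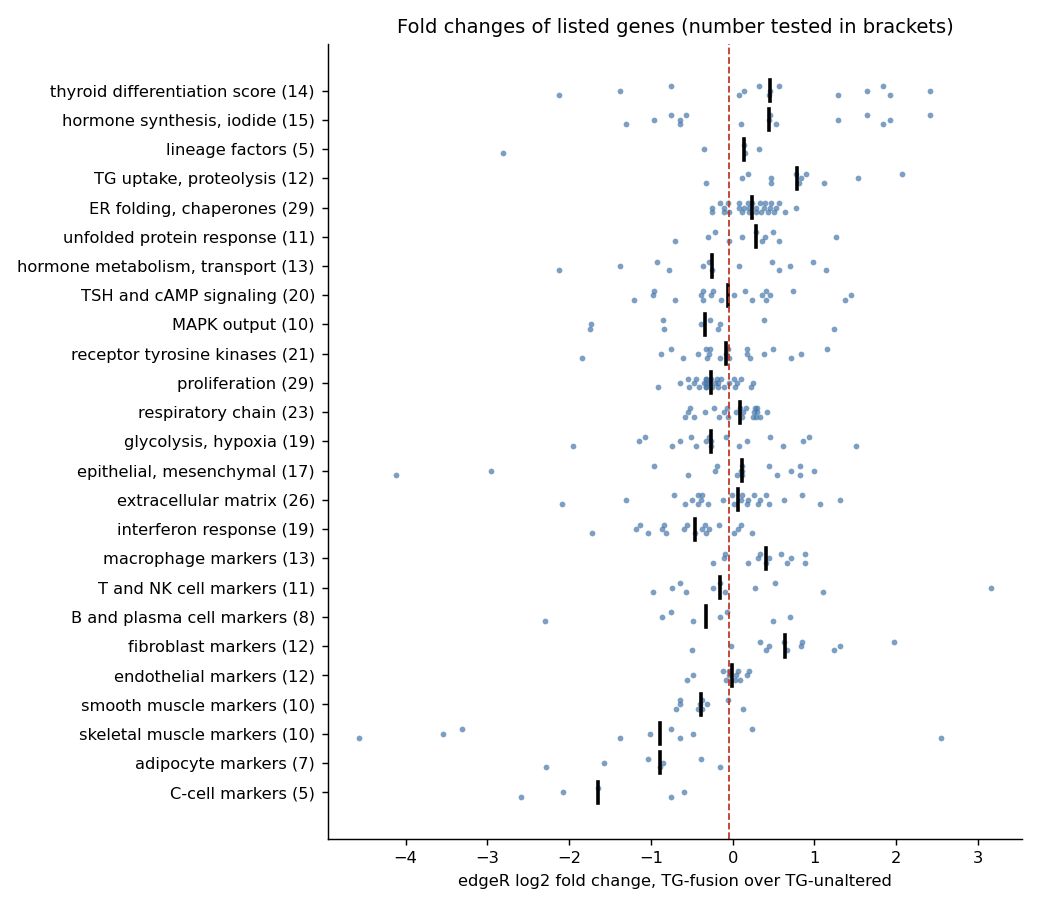
edgeR log2 fold changes of the genes of 25 lists, TG-fusion over TG-unaltered, 1 point a gene, with the list's median as a black bar and the median of all genes tested (-0.04) as a dashed line. Among the lists plotted, which leave out the TG neighbours, the erythroid markers and CASR, medians lie between -1.65 for C-cell markers and 0.79 for TG uptake and proteolysis, and none of the genes shown passed the test over all genes.

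Markers of other cell types were high in single TG-fusion tumors. In bulk tumor tissue, more cells of a type and more RNA per cell cannot be told apart. TC1994 had the highest summed macrophage level of all 19 tumors, with CD163 at 12.06 (TG-unaltered at most 11.42) and CD68 at 9.02 (at most 8.30), and the highest summed level of the 11 tested of 18 T and NK cell markers (11.70 against 8.58 to 10.03). The latter came mostly from CD4, at 11.29 in TC1994 against 4.91 and 6.77 in TC1869 and TC1953 (TG-unaltered at most 8.10). In dogs CD4 is also found on neutrophils. Of the macrophage log2 fold changes, 10 of 13 were above 0 with all 3 tumors (median 0.41), and the median was -0.17 without TC1994. MMP9, CD4, CTSK and GPNMB, genes that myeloid cells express, were all at their highest in TC1994, and the part of these cells in those values was not tested.

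Fibroblast markers had 10 of 12 log2 fold changes above 0 (46.6% of all genes) and a median of 0.65. Their summed levels were 14.89, 15.69 and 15.66 in TC1869, TC1953 and TC1994, above 12, 13 and 13 of the TG-unaltered tumors (12.52 to 16.69). Adipocyte markers (0 of 7 above 0, median -0.89), smooth muscle markers (1 of 10, median -0.39) and C-cell markers (0 of 5, median -1.65) were mostly below 0, but among well differentiated tumors the medians of the first and second were 0.06 and 0.26. The summed level of the C-cell markers was 9.03, 7.29 and 9.19 in TC1869, TC1953 and TC1994, against a TG-unaltered median of 9.33. These levels lay above 8, 2 and 8 of the TG-unaltered tumors, so of the TG-fusion tumors only TC1953 was low. Among the C-cell markers, CALCA was at 6.77, 5.86 and 8.58 in the TG-fusion tumors against 0.00 to 13.00 (median 6.88), with a log2 fold change of -2.59 that was 0.63 among well differentiated tumors. CASR, the calcium receptor of parathyroid and C cells, was at 1.52, 0.98 and 2.82 against 1.06 to 9.51 (log2 fold change -5.04, unadjusted p = 0.0336). Interferon response genes had 4 of 19 log2 fold changes above 0 (median -0.46), with a median difference of -1.77 in TC1869, -0.22 in TC1953 and 0.00 in TC1994.

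The 3 TG-fusion tumors differed among themselves. TC1869 was above all 16 TG-unaltered tumors for 2257 genes (12.8% of the genes tested), TC1994 for 946 (5.35%) and TC1953 for 576 (3.26%). They lay below all 16 for 7.45%, 5.99% and 2.14% of the genes in the same order, and above the TG-unaltered median for 49.3%, 49.2% and 50.3%. TC1869 had the highest level of the 19 tumors for 2210 genes (12.5%), the most of any tumor. It also had the most counts in total, 40.2% of them from its 10 most abundant genes, and 15808 genes with at least 10 counts (TG-unaltered median 16328). TC1994 had the highest level for 4.98% of the genes and TC1953 for 2.91%. By list, TC1869 was on the higher side for hormone synthesis (median difference 1.12), ER folding (0.86) and the respiratory chain (0.74) and on the lower side for interferon response (-1.77) and proliferation (-0.79). TC1953 was on the lower side for hormone synthesis (-0.59) and MAPK output (-1.20) and on the higher side for fibroblast markers (1.75). TC1994 was near the median for hormone synthesis (0.07) and on the higher side for macrophage (1.33) and fibroblast markers (1.37).

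**Figure D5:**
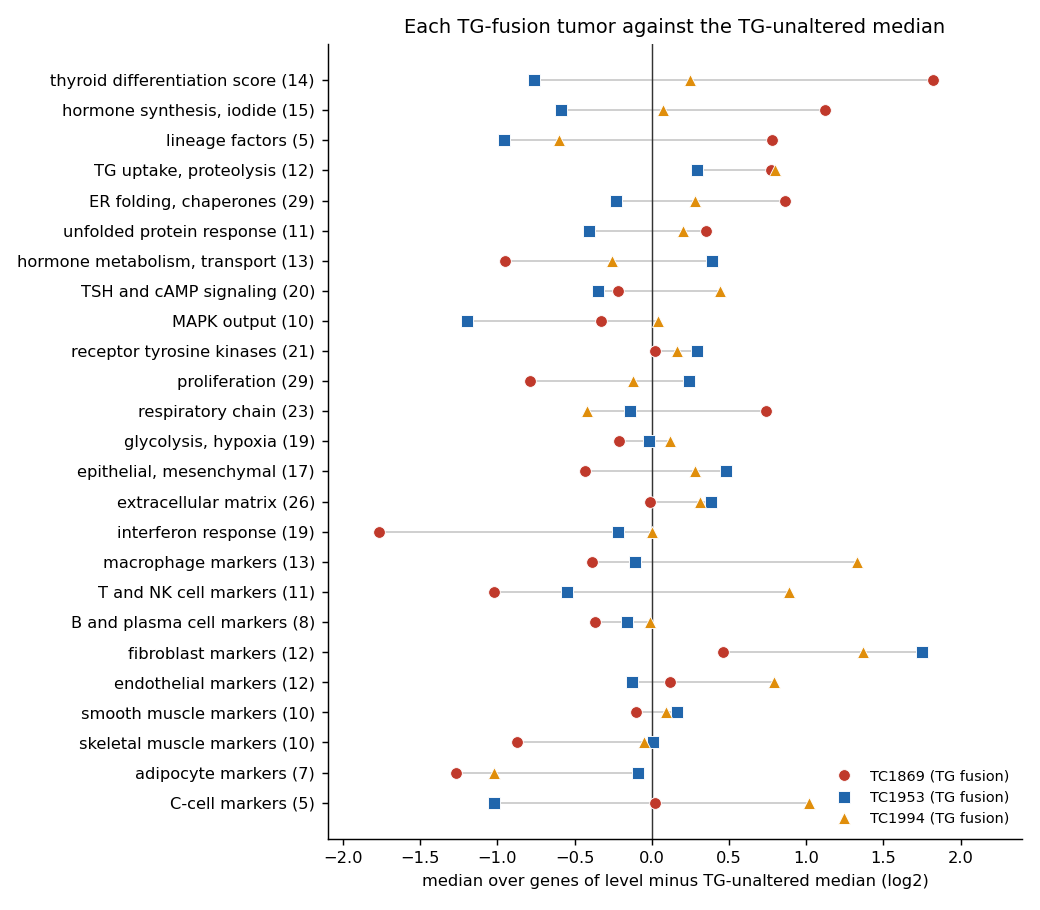
For each list, the median over its genes of the level minus the TG-unaltered median (log2), 1 symbol for each TG-fusion tumor, with the number of genes in brackets. For the thyroid differentiation score the tumors span from -0.76 (TC1953) to 1.82 (TC1869), and for macrophage markers from -0.39 (TC1869) to 1.33 (TC1994).

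The genes that each tumor expressed far above all others were chosen after their values were seen. In TC1869 they included SHH, the hedgehog ligand (13.12, next tumor 10.35), NTN1, an axon guidance ligand (14.09, next 11.84), SLC26A3, a chloride exchanger (8.01, next 5.11), ABO, a glycosyltransferase (12.05, next 9.37), and SLC2A5, the fructose transporter (14.22, next 12.00). In TC1953 they were led by ZGRF1 (11.57, next 9.02), SATB1, a chromatin organizer (8.91, next 6.51), and EYA4, a developmental transcription coactivator (8.57, next 6.69). In TC1994 they included NDNF (9.02, next 5.04), HTR3A, a serotonin-gated channel (11.60, next 8.42), SELP, the adhesion receptor P-selectin (10.12, next 7.42), PCSK1, a prohormone convertase (9.42, next 6.76), and GPNMB, a glycoprotein of macrophages and pigment cells (14.94, next 12.48). For MMP9 the tumor next to TC1994 was TC1869, the only gene among the 10 leading ones of TC1994 for which another TG-fusion tumor came second.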

How the data were processed

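RNA libraries of 30 tumors were read as 1 table of counts. Per the labels, total RNA was depleted of ribosomal RNA, and the submitters' processing notes name STAR and CanFam3.1. The authors deposited raw counts of reads per Ensembl gene, not normalized, for 30424 genes, of which 15780 carry a symbol. The table held 0 columns of no sample. Which strand was counted is not given in the sources used here.

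The labels give tumor names only. The TG groups follow a list of tumor names drawn from the study's variant overview, and grade, sex, hormone status and mineral come from its clinical table. The groups, members and gene lists were chosen with earlier results of these data known.

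Levels are log2(count / size factor + 1), with median-of-ratios size factors over the 16869 genes counted in all 19 tumors. Genes with 10 or more counts in 5 or more tumors entered edgeR 4.0.16 (TMM, quasi-likelihood test, Benjamini-Hochberg adjustment, R 4.3.3). DESeq2 1.42.0 was an alternative, and its adjusted p was NA for 1249 genes. Both were tested on simulated data. The TG level was tested by exact permutation of tumors. Each tumor is 1 library, so p-values measure the spread between tumors. Floors of 3 counts cover counting error only, since molecules were not identified.

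Named genes were TG, the listed genes, the 5 genes with a symbol and the smallest p in each direction, and the 5 neighbours of TG on each side, in the order of the UU_Cfam_GSD_1.0 gene table, from which no coordinates were taken. A further part of the rule, for genes with an adjusted p below 0.05, named none. Genes outside this rule are said to be chosen after their values were seen, as were GPNMB, EFR3A and the genes that DESeq2 called. The median log2 fold changes not given in the text were 0.06 for extracellular matrix, 0.09 for respiratory chain, 0.11 for epithelial and mesenchymal genes, and -0.01, -0.29, -0.89 and -0.32 for endothelial, erythroid, skeletal muscle and B cell markers. Alternatives were DESeq2, its size factors in edgeR, other count filters, fold limits, glmTreat, robust estimation, leaving out each tumor, differentiation or sex as a term, and well differentiated tumors alone. Python 3.11.15 with numpy 2.4.6, pandas 2.3.3, scipy 1.17.1 and matplotlib 3.10.9 was used. Some listed genes and variants are not reported here by name.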

Additional observations from a re-analysis of the deposited data

How the results depend on the processing

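With 3 TG-fusion tumors, 1 tumor decides many values. The count of genes passing edgeR's test stayed at 0 in both directions with median-of-ratios size factors, no count filter, at least 10 counts in 3 tumors, at least 50 counts in 5 tumors, a log2 fold change beyond 2, glmTreat, robust estimation, differentiation or sex as a term, and well differentiated tumors alone. Apart from the fold limits, between 677 (at least 50 counts) and 1491 (well differentiated tumors alone) genes had an unadjusted p below 0.05. DESeq2 gave 4 higher and 25 lower genes, and 3 higher and 25 lower with a log2 fold change beyond 2, an alternative added after seeing the data. The cause of the difference between the tools was not tested. Leaving out 1 tumor gave 0 to 2 higher and 0 lower genes: ENSCAFG00000024792 without TC1869 (log2 fold change 3.70), the same gene and MMP9 without TC1953 (3.64 and 5.25), and ASS1 without TC2011 (4.93). The TG difference kept its direction in all alternatives, between 2.05 and 4.27 when 1 tumor was left out, and lay past the threshold without TC1953 (4.27) and by edgeR's unadjusted p (2.42). ZGRF1 turned to -0.04 without TC1953, with 3.26 as its highest value when 1 tumor was left out. The other 9 genes with the smallest p kept their direction in all fits. Other scalings moved the median of all genes from -0.04 to -0.01. At these depths, counts of 0 allow up to 3.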

Other observations

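Some genes that respond to oxidative stress lay on the higher side, led by TC1994. The list was put together after PTGR1 and NQO1 had been seen, so it carries no test. Of 17 such genes, 15 had a log2 fold change above 0 with a median of 0.78. By edgeR, 9 had an unadjusted p below 0.05 on the higher side and 0 on the lower (2.57% and 2.24% of all genes tested). Since the genes were chosen after their values were seen, these counts cannot be weighed against those shares and only describe the list. NQO1, a quinone reductase, was at 11.63, 10.53 and 13.32 in TC1869, TC1953 and TC1994, above 15, 14 and 16 of the TG-unaltered tumors (7.47 to 11.92). GSR, glutathione reductase, was at 11.64, 10.08 and 11.81, above 16, 11 and 16 (8.36 to 10.70). HMOX1, heme oxygenase, and FTL, the ferritin light chain, were above all TG-unaltered tumors in TC1994 (12.76 and 14.76), and FTL also in TC1869 (14.22). SLC7A11, the cystine transporter, was at 10.71 in TC1994 and at 1.93 and 3.42 in TC1869 and TC1953. The value of TC1869 was below all TG-unaltered tumors, but with 3 counts against 4 in TC2011, near the floor of 3 counts. NFE2L2, the transcription factor that drives many of these genes, had a log2 fold change of -0.05, and its repressor KEAP1 0.22. None passed the test over all genes. Macrophages also express HMOX1 and FTL at high levels, and TC1994 had the highest summed level of 13 macrophage and myeloid markers of the 19 tumors (14.30, against 12.73 in TC1869, 13.04 in TC1953 and 11.93 to 13.94 in TG-unaltered tumors). The part of these cells in the values was not tested. Without TC1994 the log2 fold changes were 0.39 for HMOX1, 0.81 for FTL, 1.20 for NQO1, 1.19 for GSR and -3.90 for SLC7A11.

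Cholesterol synthesis genes were also listed after their values were seen. Of 20 such genes, 3 had a log2 fold change above 0 (46.6% of all genes) and 17 below, with a median of -0.64. By edgeR, 0 had an unadjusted p below 0.05 on the higher side and 2 on the lower (2.57% and 2.24% of all genes tested). Here too the counts cannot be weighed against those shares and only describe the list. SQLE, squalene epoxidase, was at 6.69, 6.00 and 8.04 in TC1869, TC1953 and TC1994 against a TG-unaltered median of 9.90 (log2 fold change -2.96, unadjusted p = 0.00924 and adjusted p = 0.962 by edgeR). Its level in TG-unaltered tumors ranged from 5.71 to 11.66, and TC1869, TC1953 and TC1994 lay above 2, 1 and 4 of them. Low SQLE was therefore not particular to TG-fusion tumors. CYP51A1 was the other gene of the list with an unadjusted p below 0.05, at 8.59, 7.92 and 9.27 against a median of 9.64. TC1953 was above the TG-unaltered median for 1 of the 20 genes, TC1994 for 3 and TC1869 for 10. INSIG1, which holds back the pathway, went the other way in TC1869, at 13.01 against at most 11.82 in TG-unaltered tumors.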
